A study of Mus musculus with 24 samples.

Results

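The 38 genes described here encode the Wnt ligands (19 genes), the Frizzled receptors (10 genes) and the secreted Wnt antagonists (9 genes: Sfrp1, Sfrp2, Sfrp4, Sfrp5, Frzb, Dkk1, Dkk2, Dkk3 and Wif1). They were taken by symbol, as the probe sets annotated to one of these symbols alone, and all 38 of 38 had such a probe set among the 19938 genes tested. Expression was measured with Affymetrix Mouse Gene ST arrays in embryoid bodies (EBs), floating and later plated aggregates of differentiating stem cells. All EBs were made from 46C, a single line of mouse embryonic stem cells with a reporter in the Sox1 locus, started on gelatin with LIF on day 1, kept in ultra-low attachment dishes from day 3, plated on day 7 and given serum-free ITS medium from day 8. Untreated EBs were compared with EBs that received cyclosporin A (1 ug/ml) together with FK506 (100 ng/ml) over days 3 to 8. Each treatment was collected at days 4, 6, 8 and 12, 3 arrays per group from 3 independent experiments, 24 arrays in 8 groups. At day 12 the drugs had therefore been withdrawn, and the drugs were given only in combination. The comparison asks how blocking calcineurin alters the differentiation of these cells.

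FK506 and cyclosporin A, each bound to its own immunophilin, inhibit calcineurin, the calcium-dependent phosphatase that activates NFAT transcription factors. Wnts are lipid-modified secreted proteins that bind the cysteine-rich domain of Frizzled receptors, with the co-receptors Lrp5 and Lrp6 for signalling through beta-catenin and TCF/LEF factors, or without them for planar polarity and calcium signalling, a branch in which calcineurin itself acts. Sfrp proteins, Frzb and Wif1 bind Wnts outside the cell, whereas Dkk1 and Dkk2 bind the co-receptors. In the early embryo Wnt signals are needed for the primitive streak and mesoderm, and antagonists protect the anterior region that forms forebrain.

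Values are log2 signals as deposited, differences are on that scale with their SE, and a gene is said to be higher or lower, to rise or to fall only where its limma p, adjusted over all 19938 genes, lay under 0.05. Array medians lay between 7.80 and 7.88. No detection calls came with the values, and 10 members (Wnt1, Wnt2b, Wnt3a, Wnt6, Wnt7a, Wnt7b, Wnt8b, Wnt16, Sfrp5 and Wif1) had a mean over all arrays at or under the 40th percentile of all genes, so their low values were not shown to lie above background. Signals of different probe sets are not comparable as levels, so each gene is compared only with itself. Treated replicate 2 of day 8 stood apart, with an SD of 0.171 from its group mean over all genes against 0.077 to 0.148 on the other arrays. Arrays measure RNA of whole EBs, in which fewer cells of a type and less RNA per cell cannot be told apart. The mean of the 6 pluripotency markers, the check of the labelled cell type, lay between 10.89 and 11.08 on all day 4 arrays and, in untreated EBs, between 7.76 and 8.12 at day 12.

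Of the 6 ligands that were higher in treated EBs at some day, the promoters of 5 are shown first, because these ligands moved in the same direction under the drugs. The sequences are the 250 bases before a start site in RefSeq (GRCm38.p6), read 5′ to 3′ on the strand of the gene. Capitals mark matches, on either strand, to the TCF/LEF core CTTTGA or the Smad site GGCGCC. The NFAT core, spelled GGAAAA, was searched too and matched in none of these 5. Wnt3 and Wnt2b have 1 start site in this table, as has Wnt2, Wnt5a has no entry, and of the start sites of Wnt5b and Wnt11 the one holding a TCF/LEF core is shown. The promoters at the other start sites of Wnt5b and Wnt11 held none of the 3 motifs.
Wnt3, chr11:103773925-103774174, plus strand: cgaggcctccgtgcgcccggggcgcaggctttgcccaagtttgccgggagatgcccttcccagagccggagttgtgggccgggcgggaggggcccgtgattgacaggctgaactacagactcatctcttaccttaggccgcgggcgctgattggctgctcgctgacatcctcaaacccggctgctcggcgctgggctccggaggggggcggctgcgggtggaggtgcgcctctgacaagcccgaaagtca
Wnt2b, chr3:104961710-104961959, minus strand: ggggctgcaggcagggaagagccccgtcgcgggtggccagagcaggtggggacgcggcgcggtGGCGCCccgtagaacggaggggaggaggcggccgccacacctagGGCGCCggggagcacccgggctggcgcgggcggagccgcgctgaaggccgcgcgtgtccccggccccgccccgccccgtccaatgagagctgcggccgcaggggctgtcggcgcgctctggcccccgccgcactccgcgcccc
Wnt5b, chr6:119449387-119449636, minus strand: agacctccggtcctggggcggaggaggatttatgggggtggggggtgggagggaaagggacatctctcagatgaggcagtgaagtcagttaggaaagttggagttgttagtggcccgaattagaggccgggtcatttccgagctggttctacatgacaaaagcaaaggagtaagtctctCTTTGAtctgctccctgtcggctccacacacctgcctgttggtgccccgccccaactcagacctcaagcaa
Wnt2, chr6:18030446-18030695, minus strand: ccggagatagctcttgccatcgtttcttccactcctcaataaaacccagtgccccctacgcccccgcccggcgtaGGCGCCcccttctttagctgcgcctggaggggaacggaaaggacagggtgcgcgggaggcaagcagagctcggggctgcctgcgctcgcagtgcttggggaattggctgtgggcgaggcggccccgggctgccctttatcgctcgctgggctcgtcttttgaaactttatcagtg
Wnt11, chr7:98834862-98835111, plus strand: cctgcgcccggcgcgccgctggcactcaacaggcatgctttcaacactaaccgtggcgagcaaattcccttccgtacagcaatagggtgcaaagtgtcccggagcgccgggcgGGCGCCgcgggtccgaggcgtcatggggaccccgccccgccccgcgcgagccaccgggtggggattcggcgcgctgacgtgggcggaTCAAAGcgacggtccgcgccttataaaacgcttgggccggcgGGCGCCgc
The Wnt3 promoter held none of the 3 motifs. The Wnt2b promoter held GGCGCC starting at -187 and -143, counted from -1 at the base before the start, and the Wnt2 promoter held it at -175. In the Wnt5b promoter CTTTGA lay at -71, and in the Wnt11 promoter its reverse complement lay at -50 with GGCGCC at -137 and -8. Promoters were at hand for 27 of the 38 members, 30 in all, and 5 of the 30 (16.7%) held CTTTGA against 13.8% of 32851 promoters of the same length. GGCGCC was in 9 of the 30 (30%) against 9.59%, and GGAAAA in 2 (6.67%) against 20.4%. These matches are letters in a window and not evidence of binding. The promoters were not matched for base composition, and GGCGCC holds only G and C while GGAAAA is rich in A. The shares are therefore not read as an excess or a lack of sites in these genes.

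Several members lie side by side in the genome (GRCm38.p6), and neighbours did not carry the same calls. Wnt1 (chr15:98789857-98793830) and Wnt10b (chr15:98770712-98778206) are adjacent, and Wnt1 was called in 2 of the 3 steps of the untreated EBs and in 1 treatment comparison, whereas Wnt10b was called in none. The annotated span of Wnt9b (chr11:103727362-103775272) reaches over the start of Wnt3 (chr11:103774175-103818021); Wnt3 was called at day 6, and Wnt9b in no comparison. Wnt10a (chr1:74792019-74804176) was called in all 3 untreated steps and its neighbour Wnt6 (chr1:74754342-74785322) in none. Neighbours were not compared directly, and an unequal call is not a shown difference between them. Wnt6 had uncalled differences of -0.25 (day 4 to day 6) and 0.26 (day 6 to day 8), where Wnt10a had -0.44 and 0.52. Wnt10b had 0.24 from day 6 to day 8 (limma adjusted p = 0.066), where Wnt1 had 0.64.

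The untreated EBs were compared between neighbouring days first. From day 4 to day 6, 12 of the 38 members rose (31.6%, background 21.1% of all genes) and 5 fell (13.2%, background 20.9%). From day 6 to day 8, 19 rose (50%, background 17.8%) and 5 fell (13.2%, background 18.3%), and from day 8 to day 12, 15 rose (39.5%, background 18.8%) and 9 fell (23.7%, background 19.9%). In all, 32 members (84.2%, background 69.4%) were called in at least 1 of these steps, and 9 (23.7%, background 9.25%) in all 3, namely Wnt3a, Wnt7a, Wnt10a, Fzd1, Fzd2, Fzd3, Fzd7, Sfrp1 and Frzb. The numbers of calls lay between 14 and 25 when any one array was left out. Among genes above the 40th percentile, 3983 rose and 1994 fell from day 4 to day 6 (4215 and 4164 of all genes). Their counts from day 6 to day 8 were 1897 and 3403 (3544 and 3653 of all genes). Wnt3a, Wnt7a and Wnt16, which fell in the first step, lie at or under that percentile. So do Wnt1, Wnt3a, Wnt7a, Wnt7b, Wnt8b and Sfrp5, which rose in the second. Whether low signals shifted together was not tested.

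Frzb, the antagonist also known as Sfrp3, had the largest rise. Its signal was 6.57, 6.45 and 6.71 in untreated replicates 1, 2 and 3 at day 4 and 10.04, 9.06 and 10.02 at day 6, 8.76-fold higher on the linear scale (difference 3.13, SE 0.22, adjusted p = 1.55e-09). Dkk1, a head-forming antagonist that binds Lrp6, went from 8.60, 8.24 and 8.21 to 10.84, 9.67 and 10.54, a 4.0-fold rise (SE 0.24 on the log2 scale, adjusted p = 1.37e-06). For both genes every day 6 array lay above every day 4 array, and replicate 2 was the lowest of the day 6 arrays. Wnt3, the ligand required for the primitive streak, rose by 1.16 (SE 0.20) and Wnt5a, which acts mainly outside the beta-catenin branch, by 1.29 (SE 0.24) over the same days. Of the Frizzleds, 6 rose and none fell, with Fzd2 (0.90, SE 0.12) and Fzd8 (0.75, SE 0.13) ahead. The largest falls were small. Wnt10a fell by 0.44 on the log2 scale, from 8.41, 8.03 and 7.97 to 7.71, 7.72 and 7.68 (SE 0.13, adjusted p = 0.0125), a call lost without day 4 replicate 1 (adjusted p = 0.105). Wnt7a, a member at or under the 40th percentile, fell by 0.41, from 6.85, 6.84 and 6.69 to 6.41, 6.40 and 6.36 (SE 0.12, adjusted p = 0.00749).

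From day 6 to day 8 the largest rises were those of Wnt5a and Sfrp1. Wnt5a went from 8.59, 7.51 and 8.35 to 9.77, 8.77 and 9.74 (difference 1.28, SE 0.24, adjusted p = 0.000478). Sfrp1, a Wnt-binding antagonist abundant in neural and mesenchymal tissue, went from 9.67, 9.60 and 9.76 to 10.36, 10.85 and 10.89 (difference 1.02, SE 0.16, adjusted p = 5.78e-05). In each of these genes all 3 day 8 arrays lay above all 3 day 6 arrays. Wnt8a, a ligand of the streak, had the largest fall, from 9.95, 9.99 and 9.94 to 8.21, 9.03 and 8.98 (difference -1.22, SE 0.28, adjusted p = 0.00204), followed by Sfrp4, from 8.51, 8.68 and 8.76 to 7.62, 7.93 and 7.63 (difference -0.92, SE 0.15, adjusted p = 0.000114). Fzd4, known as the Norrin receptor of blood vessels, rose by 0.98 (SE 0.22).

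From day 8 to day 12, 4 ligands rose (Wnt1, Wnt7a, Wnt7b and Wnt8b) and 5 fell (Wnt2b, Wnt3, Wnt3a, Wnt8a and Wnt10a). Wnt1, the ligand of the midbrain-hindbrain boundary, went from 6.98, 6.92 and 7.12 to 8.71, 9.51 and 8.86 (4.05-fold, difference 2.02, SE 0.17, adjusted p = 3.98e-09). Wnt8b (1.14, SE 0.13), Wnt7a (0.99, SE 0.12) and Wnt7b (0.59, SE 0.08), ligands of the developing forebrain and spinal cord, rose too. Dkk2 went from 7.42, 7.34 and 7.19 to 9.25, 9.05 and 8.57 (difference 1.64, SE 0.23, adjusted p = 7.71e-06), and Fzd3, a receptor needed for axon tracts and neural tube closure, rose by 1.61 (SE 0.13). Falls were largest in Wnt8a, which reached 7.19, 6.96 and 7.06 (difference -1.67, SE 0.28, adjusted p = 4.98e-05), and in Wnt3, from 8.52, 8.74 and 8.90 to 8.02, 7.62 and 7.54 (difference -0.99, SE 0.20, adjusted p = 0.000471). All of these were separated without overlap between the days.

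**Figure D1:**
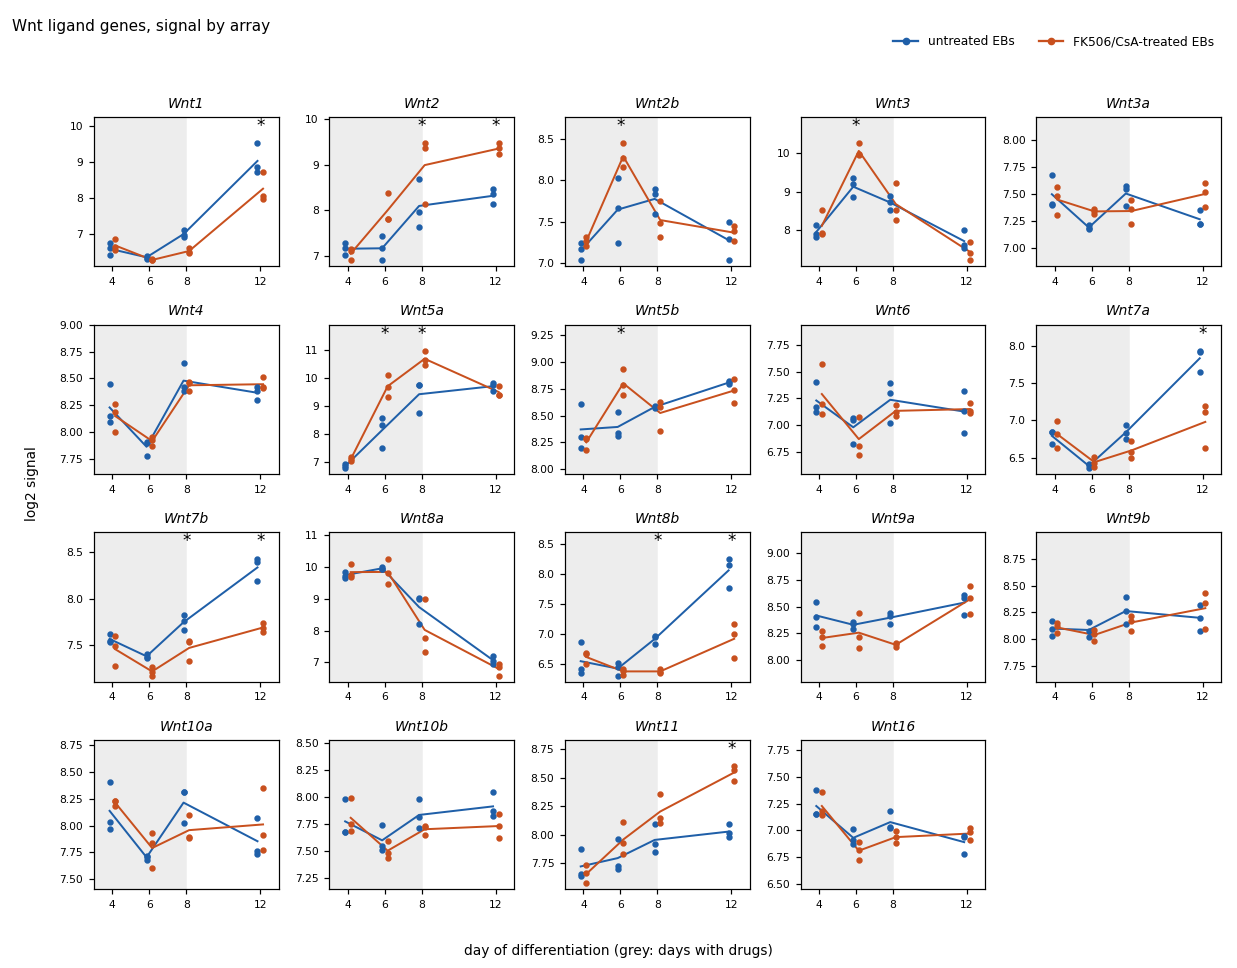
Log2 signal (vertical axis, its own range in each panel) of the 19 Wnt ligand genes against day of differentiation; points are single arrays (3 per group), lines join the group means of untreated (blue) and FK506/CsA-treated (orange) EBs, grey marks the days with drugs and asterisks an adjusted p under 0.05. Wnt5a is higher in treated EBs at days 6 and 8 and meets the untreated level at day 12, whereas Wnt1, Wnt7a, Wnt7b and Wnt8b are lower in treated EBs at day 12.

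Treated and untreated EBs were then compared at each day. At day 4, 1 day into the treatment, 0 of the 38 members were called either way by limma, where 0.00502% of all genes were higher and 0% lower. The smallest p was that of Wnt9a, the only member with an unadjusted p under 0.05, whose difference was -0.21 (limma adjusted p = 0.862). At day 6, 4 members were higher (10.5%, background 1.26%) and 2 lower (5.26%, background 0.577%). The median difference over the members was -0.05 against 0.00 over all genes. At day 8, 5 members were higher (13.2%, background 4.86%) and 9 lower (23.7%, background 4.08%), with a median difference of -0.17 against -0.04 and 7 of the 38 differences above 0. At day 12, 5 were higher (13.2%, background 7.49%) and 7 lower (18.4%, background 10.4%), with medians of 0.01 and 0.02.

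Across the 4 days 26 members (68.4%, background 24.4% of all genes) were called at least once and 12 never, namely Wnt3a, Wnt4, Wnt6, Wnt8a, Wnt9a, Wnt9b, Wnt10a, Wnt10b, Wnt16, Fzd7, Fzd10 and Dkk1. Of the members, 6 were called at 2 days, 0 at 3 days and 0 in opposite directions. The 6 were Wnt5a and Fzd8 at days 6 and 8, and Wnt2, Wnt7b, Wnt8b and Fzd9 at days 8 and 12. The shares of all genes with such repeated calls were not computed, so these counts are not set against a background. Same-numbered arrays deviated together at days 6, 8 and 12, as did untreated replicate 1 and treated replicate 3 at days 8 and 12. With the replicate number as a block within day the calls numbered 8, 19 and 13 in place of 6, 14 and 12. The members that this block added are named below, and all the original calls were kept. The calls of days 6 and 8 also rested on single arrays. At day 6, 1 call was left without untreated replicate 2, untreated replicate 3 or treated replicate 1, and 2 without treated replicate 3. At day 8, 3 of the 14 were left without untreated replicate 2, 8 without untreated replicate 3, 3 without treated replicate 1 and 5 without treated replicate 3, whereas the day 12 calls numbered 10 to 12 under each such omission. A fit of the day 8 arrays alone made 0 calls (19 members at an unadjusted p under 0.05).

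**Figure D2:**
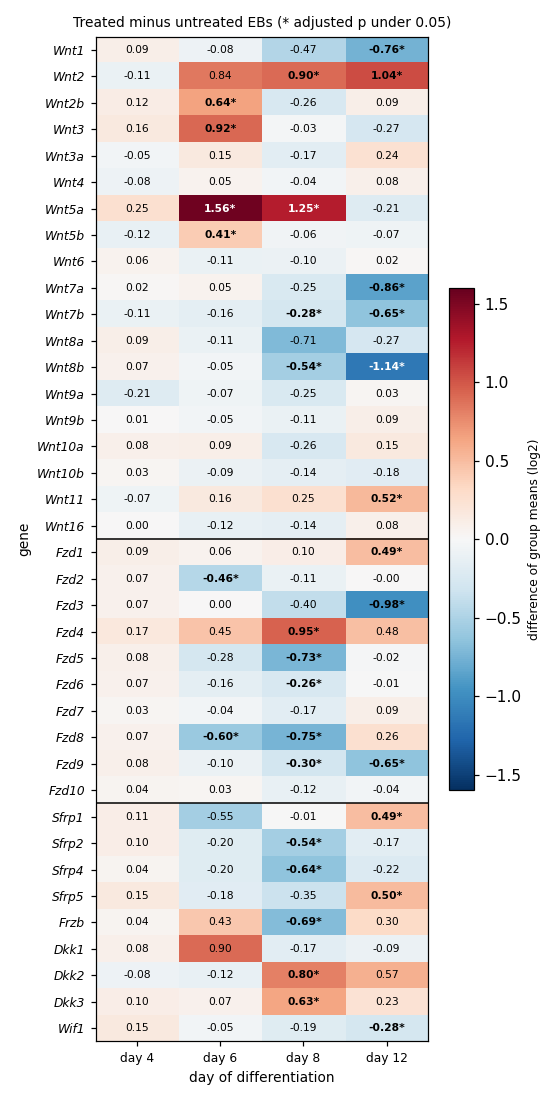
Treated minus untreated difference of group means (log2, colour and printed value) for each of the 38 genes (rows, in the order ligands, Frizzleds, antagonists) at each day (columns); asterisks and bold mark an adjusted p under 0.05. Day 4 holds no called gene, day 6 holds 6, day 8 holds 14 and day 12 holds 12, and Wnt5a at day 6 has the largest value (1.56).

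Among the ligands, 4 were higher at day 6 (Wnt2b, Wnt3, Wnt5a and Wnt5b, 21.1%, background 1.26%) and 0 lower (background 0.577%). At day 8, 2 were higher (10.5%, background 4.86%) and 2 lower (10.5%, background 4.08%). At day 12, 2 were higher (10.5%, background 7.49%) and 4 lower (21.1%, background 10.4%). Wnt5a differed most. At day 6 its signal was 8.59, 7.51 and 8.35 in untreated replicates 1, 2 and 3 and 10.10, 9.33 and 9.70 in treated replicates 1, 2 and 3, a difference of 1.56 (2.94-fold, SE 0.24, adjusted p = 0.00112). At day 8 the untreated arrays read 9.77, 8.77 and 9.74 and the treated arrays 10.96, 10.45 and 10.65 (difference 1.25, SE 0.24, adjusted p = 0.00335). Every treated array lay above every untreated one on both days, and replicate 2 was the lowest in each of the 4 groups. At day 4 the means were 6.86 untreated and 7.12 treated, and at day 12 the order was the other way in the means (9.71 untreated, 9.51 treated), without a call (adjusted p = 0.615). The day 6 call of Wnt5a was kept under all alternatives run, and that of day 8 under all but the fit of the compared groups alone (adjusted p = 0.121).

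Wnt3 was higher in treated EBs at day 6. It read 9.34, 8.85 and 9.19 in untreated and 10.24, 9.93 and 9.97 in treated EBs, with no overlap (difference 0.92, SE 0.20, adjusted p = 0.0172). By day 8 the difference was -0.03. Wnt2b, a ligand of lateral plate mesoderm, read 8.03, 7.24 and 7.67 against 8.27, 8.45 and 8.16 at day 6 (difference 0.64, SE 0.15, adjusted p = 0.0234). Wnt5b, the closest relative of Wnt5a, read 8.53, 8.31 and 8.34 against 8.93, 8.69 and 8.78 (difference 0.41, SE 0.10, adjusted p = 0.0246). All treated arrays of these 3 genes lay above the untreated ones at day 6, and at day 8 they overlapped. Without untreated replicate 2 the adjusted p was 0.161 for Wnt3, 0.236 for Wnt2b and 0.177 for Wnt5b, and each was lost too without untreated replicate 3 (0.0507, 0.067 and 0.105) or treated replicate 1 (0.117, 0.0873 and 0.158). Treated replicate 3 decided the calls of Wnt3 and Wnt5b in the same way (0.0531 and 0.073) and treated replicate 2 that of Wnt2b (0.0967), which also needed the other groups in the fit (0.0788 without them). The call of Wnt5b was lost after quantile normalization (adjusted p = 0.0658).

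Wnt2, a mesodermal ligand that with Wnt2b specifies the lung, was higher later. At day 6 it read 7.43, 6.90 and 7.17 in untreated and 8.38, 7.82 and 7.81 in treated EBs, a difference of 0.84 that was not called (adjusted p = 0.129) but was with the replicate block (adjusted p = 0.00122). Its day 6 adjusted p reached 0.512 under other alternatives. At day 8 it read 8.68, 7.64 and 7.97 against 9.47, 8.13 and 9.38 (difference 0.90, SE 0.26, adjusted p = 0.0372); treated replicate 2 lay below untreated replicate 1, so the groups overlapped. At day 12 it read 8.46, 8.36 and 8.14 against 9.47, 9.24 and 9.36 (difference 1.04, SE 0.26, adjusted p = 0.00807), with no overlap, and this call was kept under all alternatives run. The day 8 call was lost without untreated replicate 2 (0.236), untreated replicate 3 (0.101), treated replicate 1 (0.27) or treated replicate 3 (0.197), and with the intensity trend (0.0606). Wnt11, a ligand of convergent extension and heart formation, read 7.98, 8.09 and 8.01 against 8.57, 8.47 and 8.60 at day 12 (difference 0.52, SE 0.09, adjusted p = 0.000419). Its treated arrays all lay above the untreated ones there. At day 8 the difference of Wnt11, 0.25, was not called (adjusted p = 0.0938) but was with the replicate block (0.017), with array weights (0.0333), without untreated replicate 1 (0.0497) and without treated replicate 2 (0.0413). Other alternatives took its adjusted p up to 0.451.

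Wnt1, Wnt7a, Wnt7b and Wnt8b, the 4 ligands that rose from day 8 to day 12 in untreated EBs, were lower in treated EBs at day 12; the comparisons share the untreated day 12 arrays. Wnt8b, a ligand of the dorsal forebrain, read 6.83, 6.94 and 6.97 in untreated and 6.37, 6.34 and 6.41 in treated EBs at day 8 (difference -0.54, SE 0.13, adjusted p = 0.0147). At day 12 it read 7.77, 8.25 and 8.15 against 6.59, 6.99 and 7.17, 2.21-fold lower on the linear scale (difference -1.14, SE 0.13, adjusted p = 5.36e-06). The treated arrays lay below the untreated ones on both days. Wnt7b read 7.82, 7.76 and 7.66 against 7.55, 7.53 and 7.33 at day 8 (difference -0.28, SE 0.08, adjusted p = 0.0334) and 8.39, 8.19 and 8.43 against 7.64, 7.69 and 7.74 at day 12 (difference -0.65, SE 0.08, adjusted p = 1.02e-05). Wnt7a read 7.65, 7.92 and 7.93 against 6.63, 7.11 and 7.20 at day 12 (difference -0.86, SE 0.12, adjusted p = 2.37e-05). Neither gene had overlapping groups on these days. Wnt1 read 8.71, 9.51 and 8.86 against 7.98, 8.73 and 8.07 at day 12 (difference -0.76, SE 0.17, adjusted p = 0.00263); the groups overlapped, since treated replicate 2 lay just above untreated replicate 1, but within each replicate number the treated array was the lower. At day 8 Wnt1 read 6.98, 6.92 and 7.12 against 6.48, 6.52 and 6.62, a difference of -0.47 that was not called (adjusted p = 0.0847) but was with the replicate block (0.000108) and with array weights (0.0201). Its day 8 adjusted p reached 0.289 under other alternatives. Wnt7a at day 8, with a difference of -0.25, was not called (adjusted p = 0.19) but was with the replicate block (0.0466), and its adjusted p reached 0.516 under other alternatives. The day 12 calls of Wnt7a, Wnt7b and Wnt8b were kept under all alternatives run, and that of Wnt1 under all but the fit of the compared groups alone (0.0655). Those of day 8 were lost without untreated replicate 2 (Wnt8b 0.077, Wnt7b 0.13), treated replicate 1 (0.076 and 0.075) or treated replicate 3 (0.0505 and 0.196), for Wnt8b also without untreated replicate 3 (0.0518) and for Wnt7b without untreated replicate 1 (0.105). The day 8 call of Wnt7b was lost as well after centring each array on its median (0.0535) or quantile normalization (0.0533).

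Wnt8a was not called at any day, although its untreated course was among the steepest. At day 8 it read 8.21, 9.03 and 8.98 in untreated and 7.32, 8.98 and 7.77 in treated EBs (difference -0.71, SE 0.28, adjusted p = 0.112). Treated replicate 2 alone lay within the untreated range. Without treated replicate 2 the adjusted p was 0.00039, without untreated replicate 1 it was 0.0353, and with the replicate block 0.00923. Other alternatives raised it to as much as 0.571, and the difference shrank to -0.36 at the least. The other uncalled ligands, Wnt3a, Wnt4, Wnt6, Wnt9a, Wnt9b, Wnt10a, Wnt10b and Wnt16, had treatment differences between -0.26 and 0.24 over the 4 days. Group means of Wnt9b spanned 0.25 over all 8 groups, those of Wnt10b 0.41 and those of Wnt6 and Wnt9a 0.42 each, and these 4 genes were called in neither kind of comparison.

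**Figure D3:**
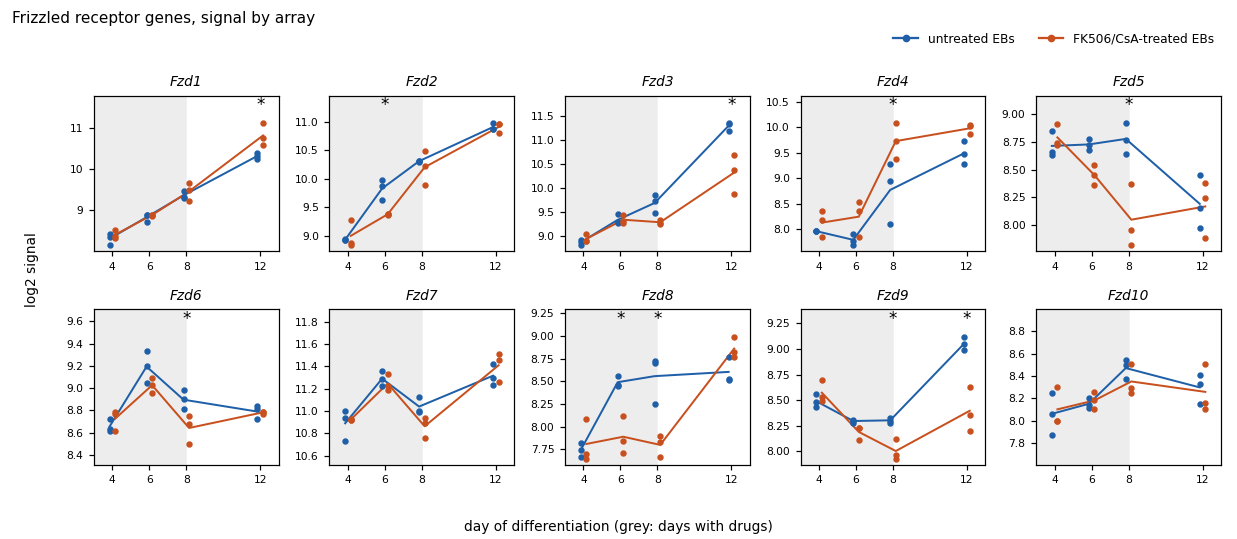
Log2 signal (vertical axis, its own range in each panel) of the 10 Frizzled genes against day of differentiation; points are single arrays (3 per group), lines join group means of untreated (blue) and FK506/CsA-treated (orange) EBs, grey marks the days with drugs and asterisks an adjusted p under 0.05. Fzd8 is lower in treated EBs at days 6 and 8 and Fzd3 and Fzd9 at day 12, while Fzd4 is higher at day 8.

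Of the 10 Frizzleds, 0 were higher (background 1.26%) and 2 lower (20%, background 0.577%) at day 6. At day 8, 1 was higher (10%, background 4.86%) and 4 lower (40%, background 4.08%). At day 12, 1 was higher (10%, background 7.49%) and 2 lower (20%, background 10.4%). Fzd8, a receptor of the anterior neural plate, read 8.45, 8.46 and 8.56 in untreated and 7.71, 8.12 and 7.84 in treated EBs at day 6 (difference -0.60, SE 0.13, adjusted p = 0.0127). At day 8 it read 8.25, 8.70 and 8.72 against 7.90, 7.83 and 7.67 (1.69-fold lower, difference -0.75, SE 0.13, adjusted p = 0.00154). Treated arrays lay below untreated ones on both days. At day 12 the treated arrays read 8.99, 8.77 and 8.82 and the untreated 8.53, 8.77 and 8.51, a difference of 0.26 without a call (adjusted p = 0.171). The day 6 call of Fzd8 was lost without untreated replicate 2 (0.0578), untreated replicate 3 (0.0591), treated replicate 1 (0.104) or treated replicate 3 (0.0618), and the day 8 call only in the fit of the compared groups alone (0.11).

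Fzd2, a receptor used by Wnt5a among others, read 9.63, 9.88 and 9.98 against 9.38, 9.38 and 9.37 at day 6 (difference -0.46, SE 0.12, adjusted p = 0.0471). The treated arrays lay close together and below the untreated ones; the call was lost when any one array of these groups but untreated replicate 1 was left out (adjusted p up to 0.235). Fzd5, known for its part in eye and yolk sac vessel development, read 8.64, 8.77 and 8.92 against 7.82, 8.37 and 7.95 at day 8 (difference -0.73, SE 0.14, adjusted p = 0.00251), with treated replicate 2 nearest the untreated arrays and no overlap. Fzd6, a planar polarity receptor, read 8.90, 8.98 and 8.81 against 8.75, 8.68 and 8.50 (difference -0.26, SE 0.08, adjusted p = 0.0407), a small difference without overlap. Its call was lost after centring on the median (0.0684), with the intensity trend (0.0535) or without untreated replicate 1 (0.0748), untreated replicate 2 (0.215), treated replicate 1 (0.0652) or treated replicate 3 (0.229).

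Fzd3 and Fzd9 were lower at day 12. Fzd3 read 11.19, 11.34 and 11.35 in untreated and 9.88, 10.69 and 10.38 in treated EBs (1.97-fold lower, difference -0.98, SE 0.13, adjusted p = 2.07e-05). At day 8 its treated arrays (9.27, 9.24 and 9.33) also lay below the untreated ones (9.48, 9.72 and 9.85), with a difference of -0.40 that was not called (adjusted p = 0.0569). It was called with the replicate block within day (0.0208) or over all days (0.0339), with array weights (0.00753), without untreated replicate 1 (0.0262), and, closer to the threshold, after quantile normalization (0.04), with the filter on low genes (0.0433) and with the intensity trend (0.0496). Under the other alternatives it was not called, with an adjusted p up to 0.197. Fzd9, a receptor of neural progenitors and the hippocampus, read 9.05, 8.99 and 9.12 against 8.20, 8.63 and 8.36 at day 12 (difference -0.65, SE 0.09, adjusted p = 1.86e-05). At day 8 it read 8.30, 8.28 and 8.33 against 7.93, 8.12 and 7.96 (difference -0.30, SE 0.09, adjusted p = 0.0326). There was no overlap on either day; the day 8 call was lost on centring (0.0528) and without any one array but treated replicate 2 (0.0601 to 0.194), and the day 12 calls of Fzd3 and Fzd9 were kept under all alternatives run.

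Fzd4 and Fzd1 were the Frizzleds that were higher. Fzd4 read 9.27, 8.11 and 8.94 in untreated and 10.08, 9.37 and 9.73 in treated EBs at day 8 (difference 0.95, SE 0.22, adjusted p = 0.0092). The treated and untreated arrays did not overlap, and replicate 2 was the lowest of each group; the call was lost without untreated replicate 2 (0.0875) or treated replicate 1 (0.0935). At day 12 the arrays were again apart (9.28, 9.72 and 9.47 against 10.02, 9.86 and 10.05), a difference of 0.48 that was not called (adjusted p = 0.138) but was with the replicate block (0.0329) and in the fit of the compared groups alone (0.0265). Other alternatives left it uncalled, with an adjusted p up to 0.327. Fzd1, a broadly expressed receptor of the beta-catenin branch, read 10.31, 10.39 and 10.25 against 11.11, 10.57 and 10.75 at day 12 (difference 0.49, SE 0.11, adjusted p = 0.0041), without overlap and kept under all alternatives run. Fzd7 and Fzd10, the uncalled Frizzleds, had treatment differences between -0.17 and 0.09.

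**Figure D4:**
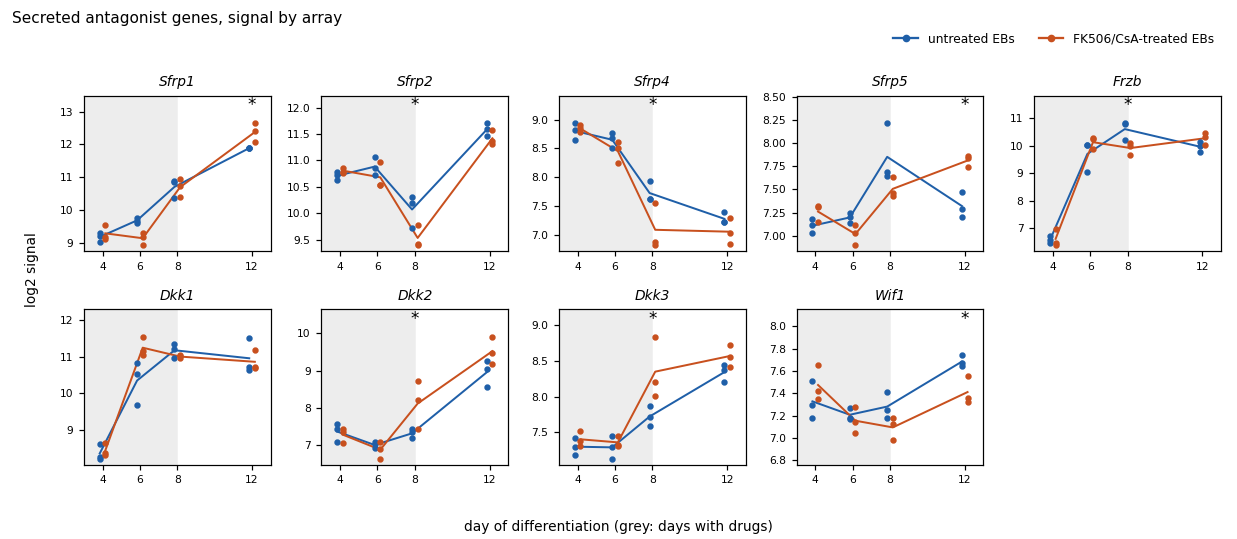
Log2 signal (vertical axis, its own range in each panel) of the 9 secreted antagonist genes against day of differentiation; points are single arrays (3 per group), lines join group means of untreated (blue) and FK506/CsA-treated (orange) EBs, grey marks the days with drugs and asterisks an adjusted p under 0.05. Sfrp2, Sfrp4 and Frzb are lower and Dkk2 and Dkk3 higher in treated EBs at day 8, and Sfrp1 and Sfrp5 are higher at day 12.

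Of the 9 antagonists, 0 were called at day 6 (background 1.26% higher and 0.577% lower). At day 8, 2 were higher (22.2%, background 4.86%) and 3 lower (33.3%, background 4.08%). At day 12, 2 were higher (22.2%, background 7.49%) and 1 lower (11.1%, background 10.4%). Dkk1 at day 6 missed the threshold narrowly. It read 10.84, 9.67 and 10.54 in untreated and 11.55, 11.15 and 11.05 in treated EBs, without overlap (difference 0.90, SE 0.24, adjusted p = 0.0504), and was called with the replicate block (adjusted p = 0.00122) and without untreated replicate 1 (0.0131). Other alternatives weakened it, with an adjusted p up to 0.415 and a difference down to 0.56. Sfrp1 at day 6 lay the other way, with 9.67, 9.60 and 9.76 against 8.93, 9.29 and 9.17 (difference -0.55, SE 0.16, adjusted p = 0.0784).

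At day 8 the Wnt-binding antagonists Sfrp4, Sfrp2 and Frzb were lower. Sfrp4 read 7.62, 7.93 and 7.63 in untreated and 6.83, 7.56 and 6.88 in treated EBs (difference -0.64, SE 0.15, adjusted p = 0.0111), with treated replicate 2 close to the untreated arrays. Sfrp2 read 9.72, 10.30 and 10.19 against 9.42, 9.77 and 9.40 (difference -0.54, SE 0.14, adjusted p = 0.0192); treated replicate 2 lay above untreated replicate 1, so the groups overlapped. Frzb read 10.22, 10.83 and 10.78 against 9.68, 10.09 and 9.99 (difference -0.69, SE 0.22, adjusted p = 0.0473), without overlap. Each of the 3 calls was lost without untreated replicate 2 (0.0934, 0.148 and 0.226), treated replicate 1 (0.112, 0.125 and 0.261) or treated replicate 3 (0.081, 0.102 and 0.111), and those of Sfrp2 and Frzb also without untreated replicate 3 (0.0737 and 0.135). That of Frzb was lost too on centring (0.0529), with the intensity trend (0.0685) and with the replicate number as a block over all days (0.0508).

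Dkk2 and Dkk3 were higher at day 8. Dkk2 read 7.42, 7.34 and 7.19 against 8.71, 7.43 and 8.21 (difference 0.80, SE 0.23, adjusted p = 0.0348). Treated replicate 2 was only just above the highest untreated array. Dkk3, a divergent member of the Dkk family, read 7.87, 7.58 and 7.71 against 8.84, 8.01 and 8.20 (difference 0.63, SE 0.15, adjusted p = 0.00974), with treated replicate 2 again the lowest treated array and no overlap. Dkk3 lost its call without untreated replicate 2 (0.0755) or treated replicate 1 (0.0914), and Dkk2 without untreated replicate 2 (0.118), untreated replicate 3 (0.0993), treated replicate 1 (0.296) or treated replicate 3 (0.125), and with the intensity trend (0.0534). At day 12 the differences of Dkk2 and Dkk3 were 0.57 and 0.23 and were not called.

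At day 12 Sfrp1 and Sfrp5 were higher and Wif1 lower. Sfrp5 read 7.47, 7.29 and 7.20 in untreated and 7.74, 7.86 and 7.84 in treated EBs (difference 0.50, SE 0.11, adjusted p = 0.00285), without overlap and kept under all alternatives run. Sfrp1 read 11.89, 11.88 and 11.88 against 12.65, 12.06 and 12.41 (difference 0.49, SE 0.16, adjusted p = 0.0298). The untreated arrays of Sfrp1 were nearly equal and the treated ones all above them, and its call was lost without any one of these arrays but treated replicate 2 (0.0645 to 0.18). Wif1 read 7.67, 7.64 and 7.74 against 7.32, 7.36 and 7.55 (difference -0.28, SE 0.09, adjusted p = 0.0465), without overlap. The Wif1 call was lost without any one of these arrays but treated replicate 3 (0.0793 to 0.179), on centring (0.0541), with the intensity trend (0.0544) and in the fit of the compared groups alone (0.0627).

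Whether the drug effect itself changed between neighbouring days was tested as a difference of differences. From day 4 to day 6, 0 members were called (11 at an unadjusted p under 0.05), where 0.0752% of all genes were called higher and 0.0201% lower. From day 6 to day 8, 0 were called (13 at an unadjusted p under 0.05), against 0.221% and 0.181% of all genes. From day 8 to day 12, across the end of the treatment, 3 were called higher (7.89%, background 2.63%) and 2 lower (5.26%, background 2.57%). Wnt5a had the largest change, from a difference of 1.25 at day 8 to -0.21 at day 12 (change -1.46, SE 0.34, adjusted p = 0.0161). Fzd8 changed from -0.75 to 0.26 (change 1.02, SE 0.18, adjusted p = 0.00262), Sfrp5 from -0.35 to 0.50 (0.84, SE 0.16, adjusted p = 0.0032) and Fzd5 from -0.73 to -0.02 (0.71, SE 0.19, adjusted p = 0.0344). Wnt7a changed from -0.25 to -0.86 (change -0.61, SE 0.16, adjusted p = 0.0323). So the effect on Wnt5a, Fzd8 and Fzd5 was smaller in size after the drugs were withdrawn and that on Wnt7a larger. The day 8 difference of Wnt7a itself was not called (adjusted p = 0.19). Its untreated day 8 signals (6.94, 6.83 and 6.75) were not shown to lie above background, so an effect at that day could be hidden. For Sfrp5 the day 8 difference itself was not called (adjusted p = 0.0516) and fell in size to -0.16 without untreated replicate 1 (adjusted p = 0.289), while with the replicate number as a block over all days its adjusted p was 0.0378.

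The replicate block raised these counts to 2 (Wnt2, adjusted p = 0.0203, and Wnt5a, 0.00147), 6 (Wnt1, Wnt2b, Wnt3, Wnt8b, Frzb and Dkk1, all lower) and 11. From day 6 to day 8, 10 were called without treated day 8 replicate 2, 1 without untreated day 6 replicate 1 and 2 without untreated day 8 replicate 1. From day 8 to day 12, 3 were left without untreated day 8 replicate 2 or untreated day 12 replicate 3, and 9 were called without treated day 8 replicate 2. The calls of Wnt7a and Fzd5 were lost when single arrays were left out (Wnt7a up to 0.0792 and Fzd5 up to 0.0978 for any such array), and the fit of the compared groups alone kept only Fzd8.

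Other genes of the pathway were read from lists by role. The background at day 6 was 1.26% of all genes higher and 0.577% lower. At day 6, 3 of 7 Wnt response genes were higher and 0 lower, namely Apcdd1 (difference 1.51, SE 0.21, adjusted p = 0.000441), Nkd1 (0.80, SE 0.13) and Tnfrsf19 (0.67, SE 0.14), all membrane or Dvl-binding proteins induced by beta-catenin signalling. Their array means over the whole list lay between 9.62 and 9.83 in treated and 8.99 and 9.24 in untreated EBs. In the list of 12 genes for Wnt secretion and the R-spondin axis 1 was higher, Wls (0.82, SE 0.12, adjusted p = 0.000441), the carrier that brings Wnts to the cell surface. Among 17 intracellular pathway genes 1 was lower, the repressor Tcf7l1 (-0.40, SE 0.09), and of the 8 co-receptors and alternative receptors and the 8 planar polarity genes 0 were called.

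At day 8, when the background was 4.86% of all genes higher and 4.08% lower, the R-spondin receptors moved apart. Lgr4 was higher (0.59, SE 0.10) and Lgr5 lower (-0.95, SE 0.20), each 8.33% of its list. Of the 8 planar polarity genes 2 were higher, Daam1 (0.44, SE 0.12) and Prickle1 (0.43, SE 0.13), and 2 lower, Celsr2 (-0.64, SE 0.13) and Vangl2 (-0.30, SE 0.08). Of the 7 response genes 1 was lower, Nkd2 (-0.38, SE 0.12), and of the 17 intracellular genes and 8 co-receptors limma called 0 (4 and 3 of them had an unadjusted p under 0.05). At day 12, 4 of the 7 response genes were lower and 0 higher: Apcdd1 (-1.25, SE 0.21), Tnfrsf19 (-0.63, SE 0.14), Lef1 (-0.50, SE 0.12) and Axin2 (-0.41, SE 0.11), with array means of the list between 8.95 and 9.32 in treated and 9.52 and 9.70 in untreated EBs. Of the planar polarity genes 3 were higher and 4 lower, the lower ones being the cadherins Celsr2 (-1.34, SE 0.13), Celsr1 (mean 9.33 against 10.33, SE 0.10) and Celsr3 (-0.53, SE 0.11) and Vangl2 (-0.50, SE 0.08). The Wnt5a receptors Ror1 (0.67, SE 0.18) and Ror2 (0.37, SE 0.09) and the co-receptor Lrp5 (0.26, SE 0.09) were higher, 3 of 8 in their list. Among the 17 intracellular genes 1 was higher (5.88%), Bcl9l (0.44, SE 0.12), and 2 were lower (11.8%), Apc2 (-0.42, SE 0.09) and Apc (-0.20, SE 0.06). Of the 12 secretion and R-spondin genes 1 was lower (8.33%), Znrf3 (-0.31, SE 0.08). The shares of these 2 lists lay near or under the day 12 background of 7.49% of all genes higher and 10.4% lower. Tcf7 and the visceral endoderm marker Rhox5 had no probe set under their symbols.

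Markers of the cell types that these EBs can hold were compared over the same arrays. The background was 1.26% of all genes higher and 0.577% lower at day 6, and 4.86% higher and 4.08% lower at day 8. At day 6, 7 of 8 lateral mesoderm markers were higher and 0 lower (Foxf1 2.69, Bmp4 1.20), and the array means of the list lay between 10.25 and 11.13 in treated and 8.57 and 9.38 in untreated EBs, beside the higher Wnt2b, Wnt3, Wnt5a and Wnt5b; of 8 streak and nascent mesoderm markers 2 were higher (Mesp1 1.54, Evx1 0.60). At day 8, 6 of 7 mesenchyme markers were higher (Col1a1 1.41, Postn 2.96), 4 of 6 visceral endoderm markers were higher (Apob 1.99, Apoa1 0.72) and 5 of 7 neural progenitor markers were lower (Zic1 -1.10, Sox1 -0.41). On the same arrays 2 of 8 lateral mesoderm markers were higher (Tbx20 1.14, Pdgfra 0.88), with 8 of 8 differences above 0. Of the 6 pluripotency markers 2 were lower (Fgf5 -1.61, Pou5f1 -0.82), of the 6 neuron markers 2 (Map2 -0.80, Stmn2 -0.79) and of the 8 streak and nascent mesoderm markers 1 (Lhx1 -1.24). Stmn2 read 12.36, 12.38 and 12.27 in untreated EBs at day 4 and 11.71, 11.28 and 11.66 at day 12. The other 5 neuron markers rose from day 8 to day 12, so the day 8 call of Stmn2 is not shown to report neurons. The mesenchyme list had array means from 8.64 to 10.50 in treated and 7.71 to 8.62 in untreated EBs, the visceral endoderm list from 9.04 to 9.46 and 8.02 to 8.84, and the neural progenitor list from 7.77 to 7.81 and 8.16 to 8.40. The lowest treated mesenchyme mean, 8.64, and the highest treated pluripotency mean, 10.33 against 8.97 and 9.55, were those of replicate 2, the array on which the Wnt8a, Sfrp4, Fzd5 and Dkk2 signals also lay nearest the untreated ones. The signals of Wnt7b, Wnt8b, Fzd6 and Fzd8, also called at day 8, lay nearest on another treated array.

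At day 12, 6 of 6 neuron markers were lower (Map2 -1.39, Dcx -1.64), with array means from 8.73 to 9.18 in treated and 9.77 to 10.25 in untreated EBs, and 5 of 7 neural progenitor markers were lower (Pax6 -1.22, Zic1 -1.21), with means from 8.47 to 8.79 and 9.18 to 9.28, beside the lower Wnt1, Wnt7a, Wnt7b, Wnt8b, Fzd3 and Fzd9. Stmn2, 1 of these 6 neuron markers, fell in untreated EBs from day 8 to day 12, unlike the other 5. The background at day 12 was 7.49% of all genes higher and 10.4% lower. Lateral mesoderm (5 of 8, Gata6 1.22), visceral endoderm (4 of 6, Afp 1.35), mesenchyme (3 of 7, Col3a1 1.37) and pluripotency markers (4 of 6, Nanog 1.20) were higher. The part of these cell type differences in the values of the Wnt genes was not tested.

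**Figure D5:**
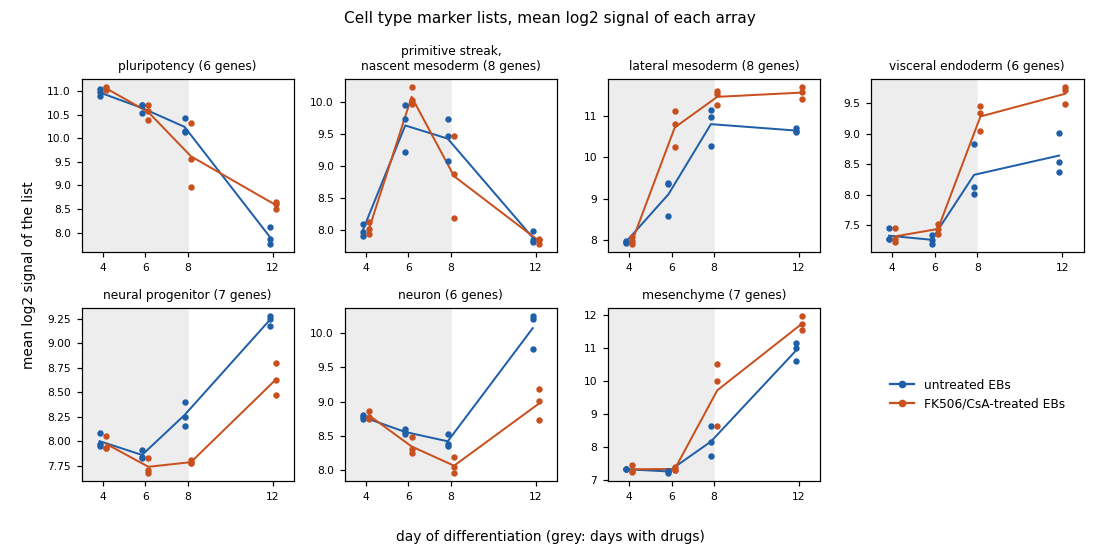
Mean log2 signal of each marker list (vertical axis, its own range in each panel) on each array against day of differentiation; points are arrays (3 per group), lines join group means of untreated (blue) and FK506/CsA-treated (orange) EBs and grey marks the days with drugs. Lateral mesoderm is higher in treated EBs from day 6, and the neuron list at day 12 lies between 8.73 and 9.18 in treated and between 9.77 and 10.25 in untreated EBs.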

How the data were processed

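The deposited values are the authors' RMA summaries from Affymetrix Expression Console, per the submitters' processing notes; their versions and the build behind the annotation are not given in the sources used. As deposited, the values are log2 signals of 35556 probe sets on 24 arrays, a scale read from their range. Arrays have no read depth, and their number limits the precision (median SE of a day 6 difference 0.09). The smallest SD between a pair of arrays was 0.175, so none was a copy.

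Of the probe sets, 21789 had 1 symbol, 1621 several and 12146 none in the platform annotation. Where a gene had several probe sets (999 genes), the highest-mean one was used (of the members only Wnt4, whose other probe set differed between treatments by -0.05 to 0.05). All 19938 genes were fitted with limma 3.58.1 in R 4.3.3: lmFit with 1 mean per group on all 24 arrays, which leaves 16 residual degrees of freedom, then eBayes, with p adjusted per contrast by Benjamini-Hochberg and a threshold of 0.05. On simulated data for the day 6 comparison (200 of 19938 genes changed) 100 of 100 changes of 1 and 100 of 100 of 2 on the log2 scale were recovered, with 12 false calls. The simulated noise was independent between arrays, without pairing or an outlying array. No change under 1 was planted, so the recovery of smaller differences, as most of those reported here are, was not measured. Plots were drawn with matplotlib 3.10.9 under Python 3.11.15 (pandas 2.3.3).

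Replicate numbers come from the labels, which do not state that a number marks one experiment. Deviations of same-numbered arrays from their group means correlated by 0.30, 0.14 and 0.21 (day 6), 0.48, 0.55 and 0.11 (day 8) and 0.12, 0.34 and 0.25 (day 12), all above 0.1, and by -0.01, 0.19 and -0.05 (day 4). The numbers were therefore taken to pair arrays at days 6, 8 and 12. Untreated replicate 1 and treated replicate 3, however, correlated by 0.13 at day 8 and 0.26 at day 12. That was above the lowest same-numbered value of each of these days, so the numbers may not mark the pairs there. The reported calls come from the fit without pairing, and the block was an alternative.

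The members and lists were chosen with earlier results of these data known. Array values are given for members called in a treatment comparison or a change of the drug effect and for the 2 largest rises and falls per untreated step; Wnt8a, Dkk1 and Sfrp1 at other days were named after their values were seen. Of other lists up to 4 members with the smallest p are named per comparison. The other settings were array weights, eBayes with trend and robust prior, the replicate block (within day, or over all days), each array left out, the compared groups alone, quantile normalization, median centring, averaged probe sets, and only genes whose mean level exceeds the 40th percentile. Protein sequences were not used here.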

Additional observations from a re-analysis of the deposited data

Results flagged for a closer look

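In 5 members the effect of FK506 and cyclosporin A differed between day 8, at the end of the treatment, and day 12, by limma's test of the difference of differences over 3 arrays per group. Wnt5a changed by -1.46 (SE 0.34, adjusted p = 0.0161) and Wnt7a by -0.61 (SE 0.16, adjusted p = 0.0323). Fzd5 changed by 0.71 (SE 0.19, adjusted p = 0.0344), Fzd8 by 1.02 (SE 0.18, adjusted p = 0.00262) and Sfrp5 by 0.84 (SE 0.16, adjusted p = 0.0032). Treated minus untreated was higher for Wnt5a in 3 of 3 replicate numbers at day 8 and lower for Fzd8 in 3 of 3, and for Sfrp5 it was lower in 3 of 3 at day 8 and higher in 3 of 3 at day 12. The Sfrp5 arrays of number 3 were close at day 8 (7.69 untreated, 7.63 treated), and its day 8 difference was not called (adjusted p = 0.0516). Replicate numbers may not mark the pairs at these days. The medium was changed to serum-free ITS on day 8 in both treatments, so the withdrawal of the drugs, the change of medium and the time that passed cannot be told apart in this change.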

How the results depend on the processing

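Of 161 results for single members under 2508 alternatives, 2205 kept their direction and their side of the threshold, 167 lost the threshold, 136 gained it and 0 reversed. The counts of calls at day 4, in the untreated steps and, but for 1 setting, at day 12 stayed within 1.5 times their value under the alternatives run. At day 6, 6 calls became 1 to 7 with one array left out. At day 8, 14 became 3 to 16 with one array left out and 0 in the fit of the compared groups alone, which calls 0 of all genes. At day 12, 12 became 6 with the filter on low genes (40th percentile), which removes 10 members. For the change from day 4 to day 6, 0 became 5 with array weights and 2 with the replicate block within day. For that from day 6 to day 8, 0 became 0 to 10 with one array left out, 10 with array weights, 6 with the replicate block within day and 1 with the block over all days. For that from day 8 to day 12, 5 became 3 to 9 with one array left out, 3 with the filter, 12 with array weights, 11 with the block within day and 1 with the compared groups alone. The cause of these changes was not tested. The filter tests fewer genes and removes Wnt1, Wnt7a, Wnt7b, Wnt8b, Sfrp5 and Wif1, all called at day 12, and the smaller fits hold fewer arrays. The block within day changed no call of a member other than those named in the report and the further 6 of the last change. Over all days it also added Sfrp5 (0.0378) and ended Frzb (0.0508) at day 8, and added Wnt6 and Wnt10b in the untreated steps. It left the calls of the untreated steps at 18, 26 and 24 in place of 17, 24 and 24. The split into higher and lower members moved from 5 and 9 to 5 and 5 at day 8 on centring, and from 4 and 2 to 3 and 3 at day 6 on quantile normalization; over all genes at day 8 it moved from 968 and 813 to 1215 and 636 on centring. With 3 arrays per group and no detection calls, small differences and differences near background are the ones these data cannot settle.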
